A study of Mus musculus with 8 samples.

Results

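The 10 genes described here encode the cytokine TNF and a set of NF-kB proteins, inhibitors and targets. They are Tnf, Tnfaip2, Tnfaip3, Nfkb1, Nfkb2, Rel, Relb, Nfkbia, Nfkbiz and Bcl3. They were chosen by name, as the rows of the count table that carry these symbols. Each symbol had 1 row among the 55450 genes of the table, and all 10 passed the filter on low counts that left 15975 genes to test.

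TNF binds receptors on the cell surface and leads, through adaptors and kinases, to the release of NF-kB dimers that are held in the cytoplasm by inhibitors of the IkB family. NF-kB then enters the nucleus and switches on many genes, among them Tnf itself and genes for its own subunits and inhibitors, so that the response feeds both forward and back. In neutrophils this pathway is known for cytokine production and for prolonging survival at sites of inflammation.

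The series holds 8 RNA libraries of mouse neutrophils that had been sorted by surface CD71, the receptor for transferrin. Of the 4 groups, each with 2 libraries, a pair (CD71- and CD71+) came from brain tumours of SB28, a mouse glioma cell line, and a pair (CD71- and CD71+) from neutrophils generated in vitro from naive bone marrow. The labels give no genotype, strain, age or drug treatment for any group and do not say whether animals or cultures were pooled. The culture groups are neutrophils made outside the body, so the tumour is compared with a culture and not with neutrophils taken from healthy tissue.

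Total counts ran from 9598959 to 22615813 per library. The sorted cells carried transcripts of neutrophil genes: Csf3r, the receptor of the growth factor G-CSF, was at 311 to 1874 CPM (read counts relative to each library's scaled size) in culture and 1996 to 5780 CPM in the tumour, while Ly6g, a neutrophil surface marker, was low in the tumour at 6.06 to 14.1 CPM. Tfrc, which encodes CD71, did not follow the sort label at the transcript level under edgeR's default scaling (TMM). It was at 187 and 145 CPM in the tumour CD71- libraries and at 103 and 108 CPM in the tumour CD71+ libraries, and in culture the ranges of the fractions overlapped. Its log2 fold change in the tumour was -0.65 (adjusted p = 0.013) under TMM but -0.084 (adjusted p = 0.77) with total counts and 0.23 (adjusted p = 0.54) with scaling on mature neutrophil markers, and with the latter it was higher in culture CD71+ (0.96, adjusted p = 0.012). Mitochondrially encoded transcripts took 7.09% and 12% of the counts in culture CD71- and 0.202% to 2.17% in the other groups.

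To show the sequence next to which these genes start, the promoter windows of RefSeq (build GRCm38.p6, which is mm10, from 250 bases before to 50 bases after a start site) were searched on both strands for the 10-base NF-kB (kB) consensus. The table held 7 of the 10 genes: Tnf, Tnfaip2, Tnfaip3, Nfkb2, Rel, Nfkbia and Bcl3. A match lay in at least 1 promoter of 6 of these 7 genes, against 8.46% of all 32851 promoters and 9.55% of all 27025 genes of the table. The consensus searched was GGGRNNYYCC, where R is A or G, Y is C or T and N is any base. The genes were chosen by name for this pathway and the search used no read counts, so the share is not a result of the libraries. A match is a description of letters and not a shown binding site. Below are 200 bases before the start of Nfkbia, whose transcript was the most abundant of the 10 per length, and of Tnf, whose window held no match. For the others, 30 bases around a match are shown, 5′ to 3′ on the gene's strand, with bases that match the consensus on either strand in capitals.
Nfkbia, chr12:55492648-55492847, minus strand: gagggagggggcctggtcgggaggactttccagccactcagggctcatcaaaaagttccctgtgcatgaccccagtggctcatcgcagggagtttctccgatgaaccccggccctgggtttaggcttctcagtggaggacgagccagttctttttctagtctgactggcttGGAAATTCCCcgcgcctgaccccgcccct
Tnf, chr17:35202008-35202207, minus strand: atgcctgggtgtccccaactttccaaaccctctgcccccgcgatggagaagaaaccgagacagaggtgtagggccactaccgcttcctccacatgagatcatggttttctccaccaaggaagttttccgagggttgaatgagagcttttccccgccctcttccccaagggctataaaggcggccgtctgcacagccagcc
Tnfaip3, upstream match, chr10:19015516-19015545, minus strand: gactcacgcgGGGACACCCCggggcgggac
Tnfaip3, match next to the start, chr10:19015403-19015432, minus strand: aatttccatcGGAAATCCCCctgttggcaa
Nfkb2, chr19:46304689-46304718, plus strand: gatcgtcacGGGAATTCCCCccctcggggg
Rel, chr11:23771041-23771070, minus strand: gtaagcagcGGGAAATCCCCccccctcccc
Bcl3, chr7:19822734-19822763, minus strand: tcggcggcagGGGAAGTCCCgctgcccggc
Tnfaip2, chr12:111442627-111442656, plus strand: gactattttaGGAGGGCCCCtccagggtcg

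With the start base counted as 0, the match in Nfkbia lay at bases -29 to -20. In Tnfaip3 the matches lay at -125 to -116 and at -12 to -3. The first of the 3 Nfkb2 promoters held GGGAATTCCCC at -39 to -29 and GGGGCTTTCC at -11 to -2. The match of Rel lay at -92 to -82, that of Tnfaip2 at -24 to -15 and that of Bcl3 at 2 to 11, just inside the transcript. The windows shown for Nfkb2, Tnfaip2 and Bcl3 also lie in exons of longer GENCODE transcripts of the same genes. That Tnf has no match says only that these letters are not in this window.

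In GENCODE M21 (build mm10) all 10 are protein-coding genes. Tnf lies on chromosome 17 at 35199381 to 35202007, Nfkbia on chromosome 12 at 55489410 to 55492647, Tnfaip3 on chromosome 10 at 19000910 to 19015657 and Nfkbiz on chromosome 16 at 55811375 to 55838899, all on the minus strand. Nfkb1 spans 135584655 to 135691547 of chromosome 3 and Rel 23736847 to 23770970 of chromosome 11, both on the minus strand. Nfkb2 lies on the plus strand of chromosome 19 at 46304320 to 46312385 and Tnfaip2 on the plus strand of chromosome 12 at 111442469 to 111455018. Relb (19606217 to 19629438) and Bcl3 (19808462 to 19822770) both lie on the minus strand of chromosome 7, with 179 kb between them. The exons of Nfkb2 overlap those of Psd and AC114539.1 on the opposite strand over 6.52% and 11.6% of their length, and exons of Tnfaip2 and Bcl3 overlap antisense genes over 6.3% and 6.5%. The strand setting of the counting was not given in the sources used here, so reads in these stretches are uncertain. AC114539.1 had 60 to 545 counts per library beside 1155 to 6631 for Nfkb2, Psd had 3 to 28, and the partners of Tnfaip2 and Bcl3 had 0 to 3.

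The main difference between libraries was the origin of the cells. All 10 genes together took 0.125% to 0.139% of all counts in the 4 culture libraries, 1.46% and 1.49% in the tumour CD71- libraries and 1.23% and 1.21% in the tumour CD71+ libraries. These shares are of total counts and do not depend on the scaling between libraries. Every one of the 10 genes was higher in tumour than in culture, in both sort fractions, by 5.42-fold (Nfkb1 and Bcl3, CD71+) to 61.2-fold (Nfkbiz, CD71-).

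**Figure D1:**
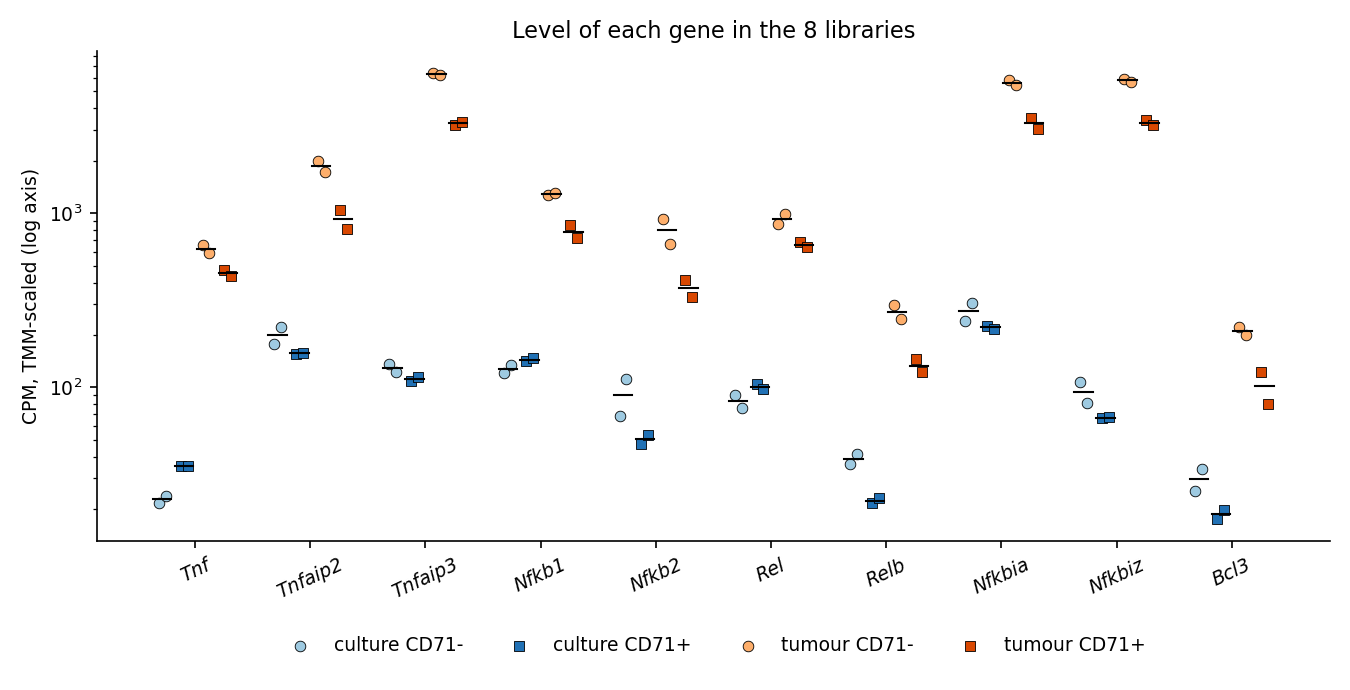
CPM of the 10 genes (log axis) in each of the 8 libraries, with points for libraries and lines for group means. All tumour points lie above all culture points for every gene. Tnf, for example, ran from 21.8 to 35.5 CPM in culture and from 438 to 655 CPM in the tumour.

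Tnf, the ligand, was at 21.8 and 23.8 CPM in culture CD71- and at 35.5 and 35.2 CPM in culture CD71+. In the tumour it was at 655 and 591 CPM in CD71- and at 469 and 438 CPM in CD71+. The 4 groups did not overlap: culture CD71- was lowest and tumour CD71- highest. Tumour cells exceeded cultured cells 27.3-fold in the CD71- fraction (4.77 in log2 units with a standard error, SE, of 0.18 and an adjusted p = 1.2e-10) and 12.8-fold in the CD71+ fraction (3.68).

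Among the feedback inhibitors, Nfkbia encodes IkB alpha, which binds NF-kB dimers and returns them to the cytoplasm. It was at 241 and 306 CPM in culture CD71-, 226 and 217 CPM in culture CD71+, 5806 and 5425 CPM in tumour CD71- and 3502 and 3046 CPM in tumour CD71+. The tumour was 20.5-fold higher in CD71- and 14.8-fold higher in CD71+. Tnfaip3 encodes A20, a ubiquitin-editing enzyme that ends signalling from the TNF receptor. It was at 136 and 123 CPM in culture CD71-, 108 and 114 CPM in culture CD71+, 6375 and 6193 CPM in tumour CD71- and 3198 and 3349.9 CPM in tumour CD71+, a rise of 48.4-fold in CD71- and 29.4-fold in CD71+. In both genes the tumour CD71- libraries were highest, the tumour CD71+ libraries next and all culture libraries far below.

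A pair of atypical IkB proteins act in the nucleus, where they change which targets NF-kB drives. Nfkbiz, which encodes IkB zeta, was at 108 and 81.2 CPM in culture CD71-, 66.7 and 67.6 CPM in culture CD71+, 5912 and 5686 CPM in tumour CD71- and 3408 and 3199.9 CPM in tumour CD71+. Its rises of 61.2-fold in CD71- and 49.2-fold in CD71+ had the largest fitted values among the 10 genes. Bcl3, which binds dimers of the p50 and p52 subunits, was at 25.6 and 34.1 CPM in culture CD71-, 17.7 and 19.7 CPM in culture CD71+, 221 and 199 CPM in tumour CD71- and 122 and 80.7 CPM in tumour CD71+. It rose 7.06-fold and 5.42-fold, so that these nuclear IkB genes lay at opposite ends of the range.

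Of the subunit genes, Nfkb1 and Rel belong to the canonical arm of the pathway and Nfkb2 and Relb to the non-canonical arm. Nfkb1 was at 121 and 135 CPM in culture CD71-, 142 and 147 CPM in culture CD71+, 1279 and 1298 CPM in tumour CD71- and 850.0 and 717 CPM in tumour CD71+. Rel was at 89.9 and 76.2 CPM in culture CD71-, 105 and 97.3 CPM in culture CD71+, 864 and 994 CPM in tumour CD71- and 680.3 and 637 CPM in tumour CD71+. Both had their lowest values in culture CD71- and their highest in tumour CD71-. The tumour exceeded culture 10.1-fold for Nfkb1 and 11.2-fold for Rel in CD71-, and 5.42-fold and 6.52-fold in CD71+.

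Nfkb2 was at 68.4 and 112 CPM in culture CD71-, 47.1 and 53.6 CPM in culture CD71+, 926 and 668 CPM in tumour CD71- and 412 and 329 CPM in tumour CD71+. Relb was at 36.3 and 41.6 CPM in culture CD71-, 21.6 and 23.2 CPM in culture CD71+, 298 and 247 CPM in tumour CD71- and 145 and 122 CPM in tumour CD71+. Under TMM scaling, Nfkb2 and Relb had their lowest values in culture CD71+, in contrast to Nfkb1, Rel and Tnf. The same held for Tnfaip2, Tnfaip3, Nfkbia, Nfkbiz and Bcl3, so it does not set these 2 subunit genes apart. The tumour exceeded culture 8.87-fold for Nfkb2 and 6.998-fold for Relb in CD71-, and 7.36-fold and 5.96-fold in CD71+. Tnfaip2, a TNF-induced gene, was at 177 and 223 CPM in culture CD71-, 156 and 158 CPM in culture CD71+, 1992 and 1717 CPM in tumour CD71- and 1044 and 809 CPM in tumour CD71+, with folds of 9.28 and 5.89 for tumour over culture.

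In these comparisons of origin the background was high: edgeR's quasi-likelihood test, at a Benjamini-Hochberg adjusted p under 0.05, called 67.1% of all genes tested within CD71- (30.3% higher in the tumour, 36.8% lower) and 57.9% within CD71+ (30.3% higher, 27.6% lower). The CPM of the 2 groups did not overlap for 82.7% of all genes tested within CD71- and 82.5% within CD71+. The members' median log2 fold change was 3.41 in CD71- beside -0.28 over all genes tested, and 2.79 in CD71+ beside -0.08. All 10 calls held under each of the 15 alternatives tried in each fraction, with a lowest log2 fold change of 1.53 in CD71- and 1.19 in CD71+, both under scaling on mature neutrophil markers. The comparisons of origin and of CD71 share libraries and are not independent of each other. In bulk RNA, fewer cells of a type and less RNA per cell cannot be told apart.

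**Figure D2:**
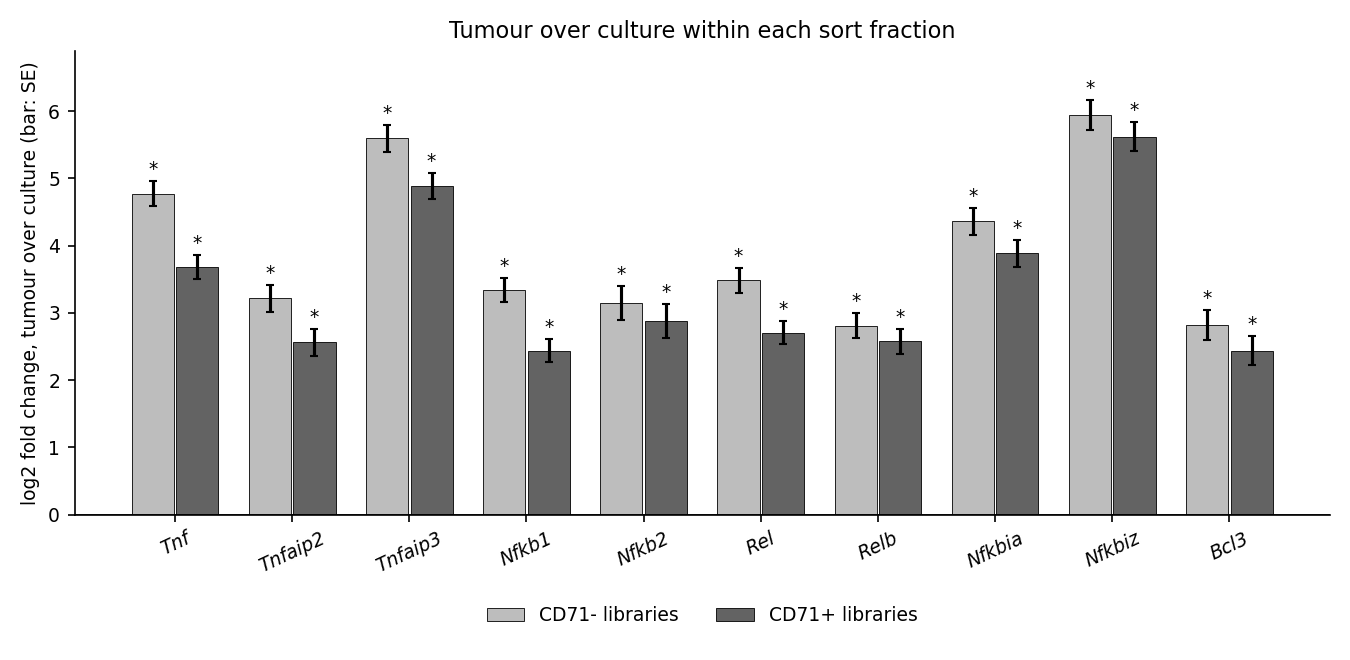
Log2 fold change of tumour over culture for each of the 10 genes within CD71- and within CD71+, as bars with error bars of 1 SE and asterisks for an adjusted p under 0.05. All values lie above 2, and Nfkbiz (5.94 and 5.62), Tnfaip3 (5.60 and 4.88) and Tnf (4.77 and 3.68) stand high beside Relb (2.81 and 2.58).

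Immediate early and heat shock genes, which tissue dissociation is known to induce, moved with the origin too: 14 of 15 were higher in tumour CD71- and 12 of 15 in tumour CD71+. Their summed level was 751 to 955 CPM in the culture libraries, 10854 to 12646 CPM in tumour CD71- and 6831 to 8588 CPM in tumour CD71+. Their part in the rise of the 10 genes was not tested. Macrophage and monocyte markers summed to 784 to 844 CPM in culture CD71- and to 884 and 885 CPM in tumour CD71-, with C1qa at 0 counts in both culture CD71- libraries, and 10 of the 15 were higher and 2 lower in the tumour. Microglia markers summed to 66.5 and 67.4 CPM there in culture and to 159 and 173 CPM in the tumour. Within CD71+ the macrophage and monocyte markers summed to 1139 and 1337 CPM in culture and to 3974 and 4376 CPM in the tumour, with 11 of 15 called higher. Microglia markers there summed to 126 and 155 CPM in culture and to 1107 and 1584 CPM in the tumour, with all 10 called higher. Mature neutrophil markers summed to 10675 to 11498 CPM in culture CD71- and to 41635 to 43516 CPM in tumour CD71-. Within CD71+ they summed to 5251 to 6619 CPM in culture and to 19870 to 21144 CPM in the tumour. In each fraction 17 of these 25 were called higher in the tumour and 3 lower. Of 7 early neutrophil markers tested, 1 was higher and 4 lower within CD71-, and 2 were higher and 2 lower within CD71+. These shares called were near those of all genes tested, 67.1% within CD71- and 57.9% within CD71+. Beside all marker counts here, 30.3% of all genes tested were called higher in each fraction. The shares called lower were 36.8% in CD71- and 27.6% in CD71+. The part of all these markers in the rise of the 10 genes was not tested either.

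To set the genes side by side, levels were divided by the merged length of all annotated exons of each gene. The transcripts present may be shorter than that, so ranks and orders between genes are approximate. Nfkbia was the highest of the 10 in every group, at 3488 CPM per kb in tumour CD71-, where it ranked 9 and 10 among the 15975 genes tested, and at 2034 CPM per kb in tumour CD71+, rank 12 in both libraries. In culture it was at 170.0 CPM per kb in CD71- and 137 CPM per kb in CD71+. Relb was the lowest of the 10 in every group, at 5.76 to 70.1 CPM per kb. The genes between changed places: in the tumour Nfkbiz and Tnfaip3 came next after Nfkbia in both fractions, while in culture Tnfaip2 did.

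In tumour CD71- the order per length was Nfkbia, Nfkbiz (1156 CPM per kb), Tnfaip3 (870 CPM per kb), Tnf (380.2 CPM per kb), Tnfaip2 (372), Nfkb2 (174), Rel (124), Nfkb1 (107), Bcl3 (84.8) and Relb (70.1). Among neighbours in that order only Tnf and Tnfaip2 overlapped between libraries. In tumour CD71+ the order differed in 1 place, with Rel (88.2 CPM per kb) above Nfkb2 (80.8), and the neighbours Rel and Nfkb2, and Bcl3 and Relb, overlapped. In culture CD71- the values were closer together: the neighbours Nfkb2, Nfkbiz and Tnfaip3 overlapped at 18.0 to 19.6 CPM per kb, as did Tnf, Bcl3, Rel, Nfkb1 and Relb at 10.03 to 13.9. In culture CD71+ Tnf stood next after Tnfaip2, at 21.6 CPM per kb, and the only neighbours that overlapped were Rel and Nfkbiz.

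Inside the tumour, the CD71+ fraction had less of every one of the 10 transcripts than the CD71- fraction when libraries were scaled by TMM, edgeR's default, which assumes that most genes do not change. All 10 were called lower, where 43.5% of all genes tested were called (17.3% lower, 26.2% higher). The members' median log2 fold change was -0.88 beside 0.13 over all genes tested. No gene of the 10 overlapped between the fractions, which was so for 72.5% of all genes tested.

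The largest fitted falls were those of Nfkb2, Bcl3, Relb and Tnfaip2, which lay closer together than the SE of each. Nfkb2 fell by 1.11 in log2 units (SE 0.23, adjusted p = 0.0023), Bcl3 by 1.05 (SE 0.21, adjusted p = 0.0015) and Relb by 1.03 (SE 0.17, adjusted p = 0.00047). Tnfaip2 fell by 1.002 (adjusted p = 0.00094) and Tnfaip3 by 0.94 (adjusted p = 0.00065). Nfkbiz fell by 0.81 (adjusted p = 0.0028), Nfkbia by 0.78 (adjusted p = 0.0036) and Nfkb1 by 0.72 (adjusted p = 0.0033). The smallest falls were those of Rel, by 0.50 (SE 0.16, adjusted p = 0.026), and Tnf, by 0.46 (SE 0.15, adjusted p = 0.028). These 2 calls were the least stable: of the 15 alternatives, Tnf was called lower in 7 and Rel in 10. Tnf was lost with no filter on low counts (adjusted p = 0.077) and without tumour CD71- replicate 1, either tumour CD71+ library or either culture CD71+ library (adjusted p 0.051 to 0.15), and Rel without tumour CD71- replicate 2 or either tumour CD71+ library (0.072 to 0.14). The other 8 stayed called whichever library was left out.

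In culture the same sort gave a mixed picture, against a background of 16.2% of all genes tested called. No gene of the 10 overlapped between the culture fractions, which was so for 60.8% of all genes tested. Tnf was higher in CD71+, by 0.63 in log2 units (SE 0.16, adjusted p = 0.016), while 7.88% of all genes tested were called higher. Nfkb2 fell by 0.83 (SE 0.24, adjusted p = 0.028), Relb by 0.80 (SE 0.18, adjusted p = 0.0071) and Bcl3 by 0.67 (SE 0.21, adjusted p = 0.048), while 8.36% of all genes tested were called lower. The other 6 did not pass: the log2 fold change was -0.50 for Nfkbiz (adjusted p = 0.078), -0.35 for Tnfaip2, -0.31 for Nfkbia, -0.22 for Tnfaip3, 0.18 for Nfkb1 and 0.28 for Rel. The culture calls rested on both CD71+ libraries: without either one, none of the 10 passed edgeR's test, though 3 (without replicate 1) and 4 (without replicate 2) had an unadjusted p under 0.05. Nfkb2 and Bcl3 were also lost without culture CD71- replicate 2 (adjusted p = 0.20 and 0.22), and Bcl3 without either tumour CD71- library (0.087).

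**Figure D3:**
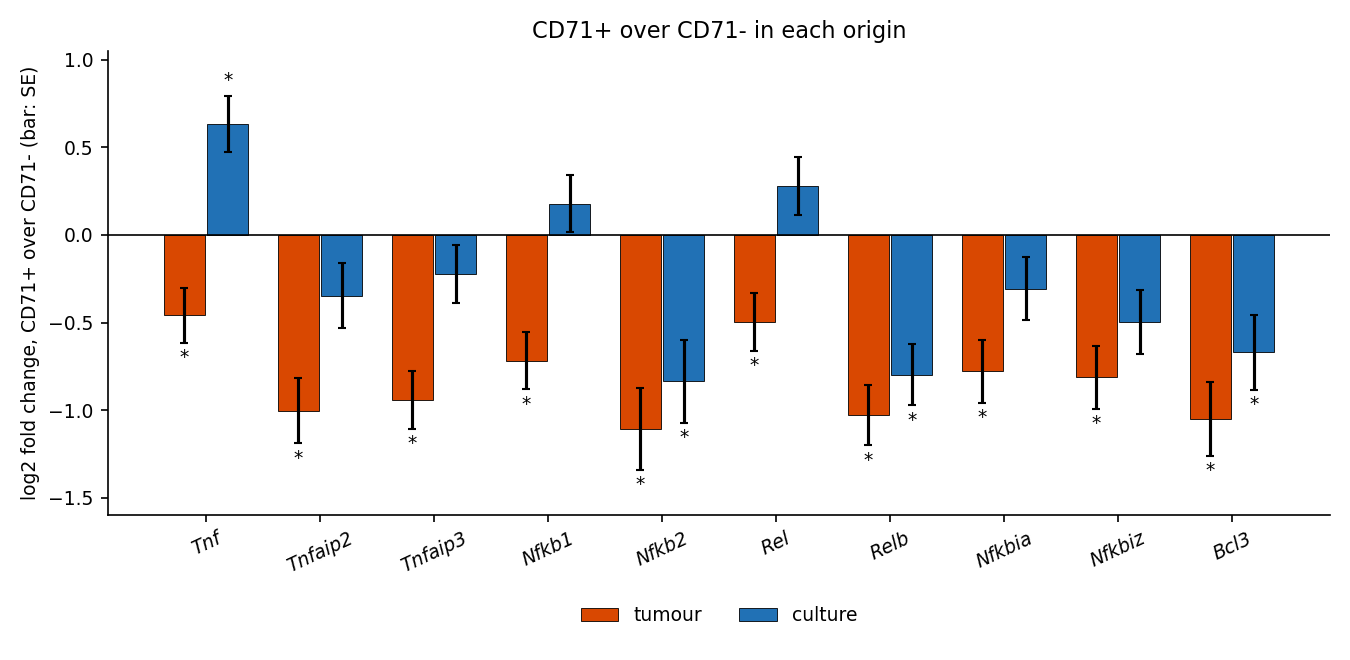
Log2 fold change of CD71+ over CD71- for each of the 10 genes in the tumour and in culture under TMM scaling, as bars with error bars of 1 SE and asterisks for an adjusted p under 0.05. Tumour values run from -1.11 to -0.46, and culture values from -0.83 (Nfkb2) to 0.63 (Tnf).

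The difference between the CD71 effects in tumour and in culture was tested in the same fit. It was called for Tnf (-1.09, SE 0.22, adjusted p = 0.0062), Nfkb1 (-0.90, SE 0.23, adjusted p = 0.019) and Rel (-0.78, SE 0.23, adjusted p = 0.038). All 3 were called lower, where 15.5% of all genes tested were called (4.71% lower, 10.8% higher). Under TMM scaling, the cultured CD71+ cells had more Tnf and the tumour CD71+ cells less than their CD71- counterparts. With total counts and with the neutrophil scaling, the direction of Tnf in the tumour turned. Tnfaip3 (-0.72, adjusted p = 0.052) and Tnfaip2 (-0.66, adjusted p = 0.10) did not pass, and Nfkb2, Relb, Nfkbia, Nfkbiz and Bcl3 did not either, with differences between -0.47 and -0.23. The 3 calls became 1 when either culture CD71+ library, the second tumour CD71- library or the second tumour CD71+ library was left out, with Tnf the gene that remained. Rel was also lost when the second culture CD71- library (adjusted p = 0.055) or the first tumour CD71+ library (0.074) was left out.

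How far the tumour fall was called depended on the scaling of the libraries. With each library scaled to its total counts, 2 of the 10 genes were called lower (Nfkb2 at -0.54 and Relb at -0.47), and Tnf and Rel were at 0.10 and 0.059. Scaled on 25 mature neutrophil markers, none was called and none had an unadjusted p under 0.05, and Tnf, Rel, Nfkb1, Nfkbia and Nfkbiz were above 0, at 0.44, 0.43, 0.19, 0.13 and 0.094. Over all genes tested, log2 fold changes shifted by a median of 0.56 with total counts and 0.90 with the neutrophil scaling, so the direction of the 10 genes between the fractions is relative to the scaling. With DESeq2's size factors the median shift was -0.22, and all 10 calls were kept. The median of the 10 was -1.10 beside -0.07 over all genes tested with DESeq2's size factors. It was -0.31 beside 0.69 with total counts and 0.03 beside 1.04 with the neutrophil scaling. A change of scaling moves all genes by nearly the same amount. The gap between these medians is therefore nearly fixed by construction, and its persistence is not a separate result.

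**Figure D4:**
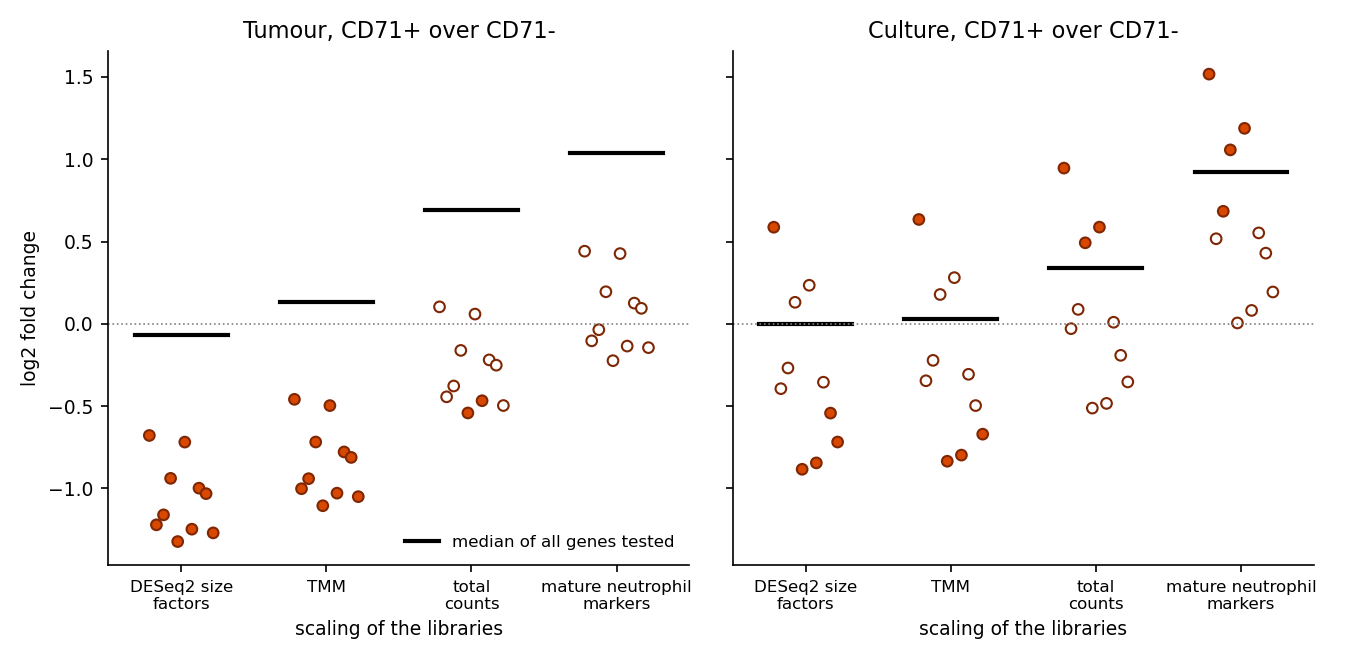
Log2 fold change of CD71+ over CD71- of the 10 genes under the 4 scalings, for tumour and culture, with filled points for an adjusted p under 0.05 and a black line for the median of all genes tested. In the tumour the medians of all genes rise from -0.07 to 1.04 across the scalings and those of the 10 genes from -1.10 to 0.03. A change of scaling moves all genes nearly alike, so the gap between these medians is nearly fixed by construction.

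Of the split of all tumour calls, 60.16% were higher in CD71+ under TMM, 47.26% with DESeq2's size factors, 93.25% with total counts and 99.66% with the neutrophil scaling. In culture the same shares were 48.52%, 42.34%, 80.9% and 97.78%. For tumour over culture they were 45.11%, 52.05%, 25.3% and 19.91% in CD71- and 52.31%, 55.54%, 29.27% and 19.06% in CD71+. Among the 10 genes in culture, 3 were called with total counts (Tnf, Nfkb1 and Rel, at 0.95, 0.49 and 0.59), all higher. With the neutrophil scaling 4 were called, all higher: Tnf at 1.52, Rel at 1.19, Nfkb1 at 1.06 and Tnfaip3 at 0.68.

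Markers of other cell types moved with the tumour sort, in which 43.5% of all genes tested were called (26.2% higher, 17.3% lower). In tumour CD71+, 13 of 15 macrophage and monocyte markers and all 10 microglia markers were called higher. Their summed levels were 884 and 885 CPM against 3974 and 4376 CPM for macrophages and monocytes, and 159 and 173 CPM against 1107 and 1584 CPM for microglia. Of the markers tested, 5 of 8 dendritic cell markers were higher and 1 lower, and 3 of 3 lymphocyte and NK cell markers were higher. The same held for 4 of 8 glioma and neural and 4 of 7 endothelial and stromal markers, with 1 of the latter lower. The dendritic, glioma and endothelial sums overlapped between the fractions. Mature neutrophil markers went the other way, as the 10 genes did: 19 of 25 were called lower, and their sum was 41635 to 43516 CPM in CD71- and 19870 to 21144 CPM in CD71+. Immediate early and heat shock genes were called lower for 7 of 15. The shares of these genes and of glioma and neural markers called in either direction were near that of all genes tested (43.5%). The part of these shifts in the falls of the 10 genes was not tested. In culture the macrophage markers summed to 784 to 844 CPM in CD71- and 1139 to 1337 CPM in CD71+, with 9 of 15 called higher, and mature neutrophil markers summed to 10675 to 11498 CPM and 5251 to 6619 CPM, with 1 called higher and 11 lower. Tnf in culture thus rose beside a rise of macrophage markers, whose part was not tested. Of all genes tested in the culture sort, 7.88% were called higher and 8.36% lower.

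Ratios between members are independent of the scaling, since both genes are read in the same library. They were chosen after the values had been seen, and 2 libraries against 2 cannot give an exact permutation p below 0.333, so they are descriptions. The ratio of Nfkb2 to Nfkb1 per exon length, which sets the non-canonical against the canonical precursor, was 1.49 and 2.18 in culture CD71- and 0.87 and 0.963 in culture CD71+. In the tumour it was 1.90 and 1.35 in CD71- and 1.28 and 1.21 in CD71+. The ratio was thus lower in the CD71+ libraries of either origin, without overlap. In CPM, Nfkb1 lay above Nfkb2 in every library, so the size of this ratio rests on the exon lengths used. Differences of the ratio between libraries do not depend on these lengths.

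The ratio of Relb to Rel was 0.776 and 1.05 in culture CD71- against 0.397 and 0.457 in culture CD71+, and 0.663 and 0.477 in tumour CD71- against 0.409 and 0.368 in tumour CD71+. Bcl3 over Nfkb1 was 1.03 and 1.23 against 0.604 and 0.656 in culture, and 0.842 and 0.746 against 0.700 and 0.548 in the tumour. All 3 ratios were lower in CD71+ than in CD71- at both origins. The inhibitors also had less transcript per Tnf transcript in CD71+: Nfkbia over Tnf was 11.3 and 13.1 against 6.47 and 6.26 in culture, and 9.02 and 9.34 against 7.60 and 7.09 in the tumour.

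Tnfaip3 over Tnf was 1.42 and 1.17 in culture CD71- and 0.692 and 0.736 in culture CD71+. In the tumour it was 2.21 and 2.38 in CD71- and 1.55 and 1.74 in CD71+, so that it was lower in CD71+ at each origin and higher in the tumour in each fraction. Nfkbiz over Nfkbia did not separate the fractions. Its mean log2 value was -3.18 in culture CD71- and -3.36 in culture CD71+, and -1.59 and -1.62 in the tumour, so that it separated the origins without overlap.

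**Figure D5:**
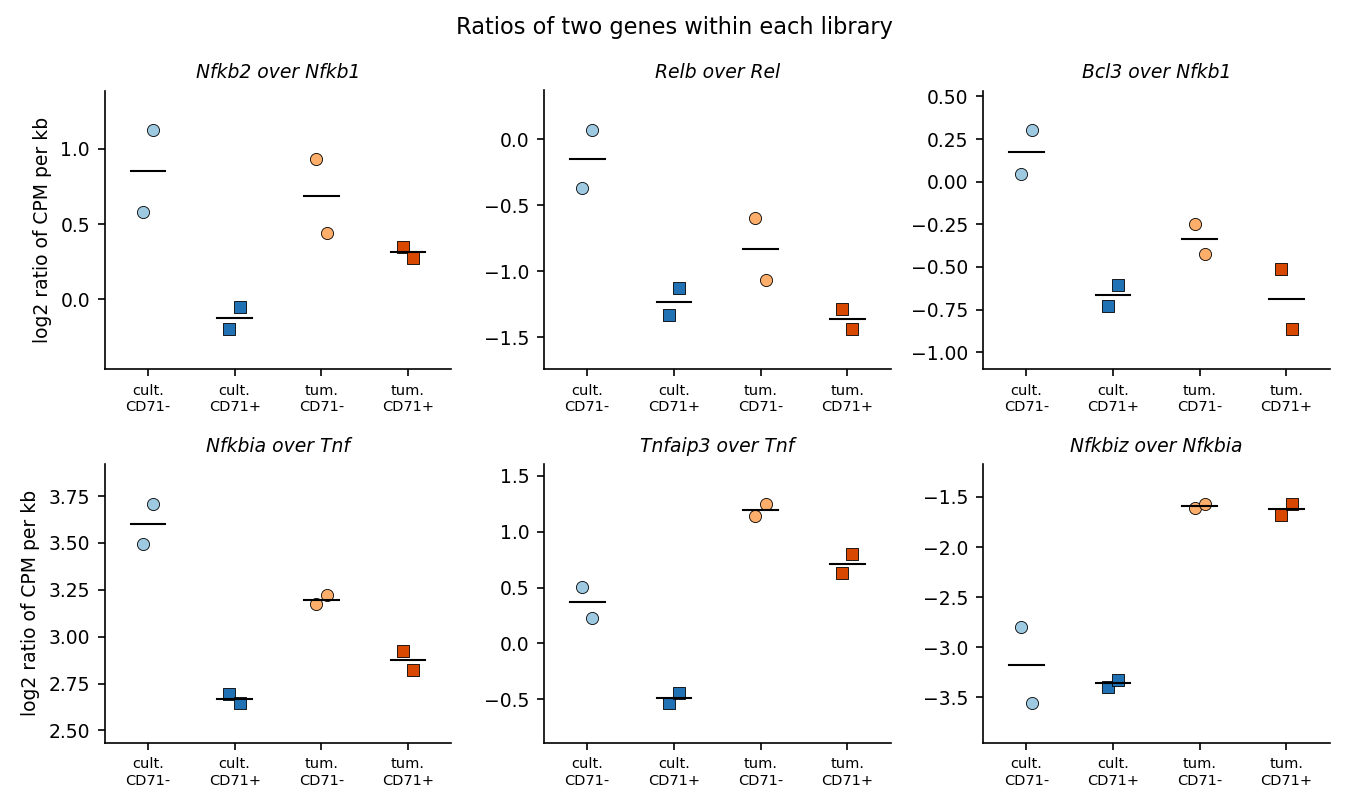
Log2 ratios of 6 pairs of the 10 genes, per exon length, in each of the 8 libraries. In 5 of the 6 the CD71+ libraries lie below the CD71- libraries at each origin, and in Nfkbiz over Nfkbia the tumour libraries (means -1.59 and -1.62) lie above the culture libraries (-3.18 and -3.36). The ratios over Nfkb1 share that gene, as do those over Tnf, so the ratios are not independent of each other.

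Upstream of these genes, the 15 TNF receptors, sheddase and adaptors held 8 genes called higher and 2 lower in tumour over culture within CD71-, and 5 higher and 1 lower within CD71+. The 10 of 15 called within CD71- were a share near the background of 67.1%, and the share within CD71+ lay below its background of 57.9%. For this and the lists below, the background was 43.5% in the tumour sort and 16.2% in the culture sort. Tnfrsf1b, the second TNF receptor, was at 249 and 258 CPM in culture CD71- and 3061 and 2855 CPM in tumour CD71-, a log2 rise of 3.55. Tnfrsf1a, the main receptor of soluble TNF, rose by 2.88 there, and the adaptor Traf1, itself an NF-kB target, by 3.93. Tradd, the adaptor of the first receptor, was lower, at -1.505 in CD71- and -1.11 in CD71+. The tumour CD71 sort called 1 of the 15 higher and 7 lower, led by Tnfrsf1a (-1.01) and the ubiquitin ligase genes Rnf31 (-1.01) and Birc3 (-0.98). In culture Tnfrsf1b, like Tnf, was higher in CD71+ (0.55, adjusted p = 0.040, lost without any library but culture CD71- replicate 2) and Rnf31 lower (-0.76, lost without either culture CD71+ library), and the test of the difference between tumour and culture called Tnfrsf1b (-1.46, adjusted p = 0.0019).

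Of the 11 kinases, 3 were higher and 2 lower in tumour over culture within CD71-, and 3 were higher and 3 lower within CD71+. These shares lay below those of all genes tested (67.1% and 57.9%). The shares of kinases called in the tumour sort and in the culture sort were also below the background (43.5% and 16.2%). Map3k8, a kinase bound to the Nfkb1 precursor, rose by 1.91 and 1.47, and Tbk1 by 1.94 and 1.45, while Ikbkg, the regulatory subunit of the IkB kinase, fell by 1.41 and 1.12. The direction of Chuk, a catalytic subunit (0.74 and 0.80), turned in CD71- with total counts and in both fractions with the neutrophil scaling. Within the tumour 3 were lower in CD71+, namely Map3k8, Ikbke and Tbk1 (-0.73, -0.67 and -0.83), and these too lay above 0 with the neutrophil scaling. In culture Map3k14, which drives the non-canonical arm, was the only one called, at -0.87 (lost without culture CD71+ replicate 1 or culture CD71- replicate 2).

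Of the 12 other subunits, inhibitors and deubiquitinase partners, 7 were higher and 4 lower in tumour over culture within CD71-, and 6 higher and 1 lower within CD71+. The share called within CD71+ was near the background of 57.9%. Nfkbid, another nuclear IkB gene, was at 38.1 and 51.9 CPM in culture CD71- and 1430.0 and 993 CPM in tumour CD71-, a log2 rise of 4.75. Nfkbie and Nfkbib, which encode further cytoplasmic IkB proteins, rose by 3.45 and 3.06, while the A20 partner gene Tnip3 fell by 0.90 in CD71- and by 1.53 in CD71+. Within the tumour 2 were higher in CD71+, Tnip3 (1.81) and Otulin (0.64), and 7 lower, among them Rela (-0.92), which encodes the p65 subunit, Nfkbid (-0.98) and Tnip1 (-0.98). In culture 1 was higher, Tnip3 at 2.45, and 5 were lower, among them Nfkbid (-1.04), Tnip2 (-0.85) and Itch (-0.74).

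Of the 10 regulators of TNF and cytokine mRNA, 7 were higher and 1 lower in tumour over culture within CD71-, and 5 higher and 1 lower within CD71+. The share called was near the background within CD71+ (57.9%) and in the tumour sort (43.5%). Zfp36, whose product binds and destabilises Tnf mRNA, rose by 3.67 and 3.61, and Zc3h12a, an RNase that cleaves cytokine mRNA, by 3.84 and 3.26. Dusp1, a phosphatase of MAP kinases, was at 42.9 and 32.5 CPM in culture CD71- and 5696 and 5589 CPM in tumour CD71-, a rise of 7.22. Tia1, a translational repressor, fell by 1.30 and 1.28. Within the tumour 5 were lower in CD71+, led by Zc3h12a (-1.05), Dusp1 (-0.95) and Mapkapk2 (-0.89), and in culture edgeR called 0 of the 10, with 3 at an unadjusted p under 0.05 (1 higher and 2 lower), while DESeq2's Wald test called 2, both lower.

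Of the 25 NF-kB target genes, 23 were higher and 2 lower in tumour over culture within CD71-, and 23 were higher within CD71+. Ptgs2, which encodes cyclooxygenase-2, was at 21.9 and 10.2 CPM in culture CD71- and 7521 and 7767 CPM in tumour CD71-, a log2 rise of 8.88. Sdc4, a surface proteoglycan, and Ripk2, a kinase of the NOD receptors, were lower in CD71-, at -2.05 and -1.63. The chemokine gene Cxcl1 had 0 counts in both culture CD71- libraries, so that tumour CD71- was at least 414-fold higher, taking 3 counts per library as the floor. Within the tumour 6 targets were higher in CD71+, led by Cd83, a surface marker of activated cells (2.94), Sdc4 (2.50) and Ripk2 (1.15), and 11 lower, among them Pde4b, a phosphodiesterase gene (-1.06), the inflammasome sensor Nlrp3 (-1.05) and Ier3 (-0.95). In culture 7 were higher, among them the chemokine gene Ccl4 (2.005) and Cd83 (1.82), and 4 lower, led by the transcription factor gene Irf1 (-1.11), Nlrp3 (-1.05) and Gadd45b (-1.02).

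These list counts for the tumour sort also moved with the scaling. With total counts the numbers called higher and lower were 2 and 1 for receptors and adaptors and 7 and 2 for targets, while 3 kinases, 4 other subunits and inhibitors and 2 mRNA regulators were called, all higher. With the neutrophil scaling edgeR called 0 genes of the 5 lists lower, with 0 at an unadjusted p under 0.05, and 3, 4, 4, 3 and 9 of them higher, in the same order of lists. In the culture sort the numbers called higher and lower with total counts were 2 and 0 for receptors and adaptors, 0 and 0 for kinases, 1 and 1 for other subunits and inhibitors, 1 and 0 for mRNA regulators and 8 and 2 for targets. Where edgeR called 0 lower, 1 receptor or adaptor gene, 1 kinase and 0 mRNA regulators were lower at an unadjusted p under 0.05, and 0 kinases were higher at that level. With the neutrophil scaling 6, 1, 2, 6 and 16 were higher there, and edgeR called 0 lower, with 0 at an unadjusted p under 0.05.

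The counts of tumour over culture moved as well, and those of the targets moved by at most 2 genes. Within CD71- the targets were 21 higher and 2 lower under each of these scalings, and within CD71+ 23 and 2 with total counts and 22 and 2 with the neutrophil scaling. Receptors and adaptors within CD71- turned to 4 higher and 8 lower with total counts and 4 and 9 with the neutrophil scaling, and within CD71+ to 4 and 4 and to 4 and 10. Kinases within CD71- were 2 higher and 8 lower under both scalings. Within CD71+ they were 2 and 7 with total counts, and with the neutrophil scaling 7 were lower and edgeR called 0 higher, with 0 at an unadjusted p under 0.05. Other subunits and inhibitors were 6 higher and 5 lower within CD71- and 6 and 3 within CD71+ with total counts, and 4 and 5 and 3 and 6 with the neutrophil scaling. The mRNA regulators were 5 higher and 3 lower in each fraction with total counts, and 5 and 4 and 4 and 5 with the neutrophil scaling.

 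Cd83 and Sdc4 kept their direction and call in the tumour sort under every alternative tried. Among the named pathway genes of the tumour sort, Otulin, Rela, Nfkbid, Tnip1, Map3k8, Ikbke and Ripk2 each lost their call without at least 1 library (adjusted p 0.052 to 0.28). In the culture sort Nfkbid, Tnip2, Itch and Gadd45b did so (0.054 to 0.18). Between origins, Tradd and Ikbke in CD71+ and Tnip3 and Otulin in CD71- did so (0.060 to 0.26).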

How the data were processed

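The authors deposited 1 table of raw counts, whole numbers of reads per gene with no normalization, that covers 8 libraries in 4 groups of 2. Per the labels' protocols, RNA was extracted with a Zymo Quick-RNA Microprep kit and made into libraries with Illumina's stranded total RNA kit with Ribo-Zero Plus. The submitters' processing notes name build mm10 and the tools STAR, featureCounts, cutadapt, FastQC and DESeq2; versions and the strand setting are not given in the sources used here. All 55450 gene IDs and names matched GENCODE M21, which gave coordinates and merged exon lengths.

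The test was edgeR's (version 4.0.16, in R 4.3.3; filterByExpr on the 4 groups, 15975 genes kept, TMM scaling, 4 group means over 8 libraries, robust quasi-likelihood fit, with a common coefficient of 0.19 for biological variation and 4 residual degrees of freedom) in 5 comparisons. A gene was called at a Benjamini-Hochberg adjusted p under 0.05 over all genes tested. CPM was computed on TMM-scaled library sizes. A count of 0 allows up to 3 counts, which covers counting error only. No label says that the samples of a group are separate animals or cultures; p-values therefore reflect the spread among the samples at hand, and this spread may be technical. The fit was tested on simulated data.

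The 10 genes, the lists and the tests were chosen with earlier results of these data known. The text names all 10 genes and, from each pathway list and comparison, up to 3 rises and 3 falls among called genes with a mean of at least 5 CPM. Naming genes with a pattern like that of Tnf was also planned; it was left out because tumour and culture libraries form separate clusters, so that no pooled correlation is given. Alternatives were DESeq2 1.42.0 (size factors, and its Wald test), total counts, scaling on mature neutrophil markers, no filter, the replicate number as a block, only the 4 libraries compared, and leaving out each library.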

Additional observations from a re-analysis of the deposited data

Results flagged for a closer look

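The effect of the CD71 sort differed between tumour and culture for 3 of the 10 genes, by edgeR's test of the difference itself. For Tnf the effect in the tumour minus that in culture was -1.09 (log2, adjusted p = 0.0062). Under TMM scaling Tnf was at 655 and 591 against 469 and 438 CPM (CD71- against CD71+) in the tumour. In culture it was at 21.8 and 23.8 against 35.5 and 35.2 CPM. The direction in the tumour turned with total counts and with the neutrophil scaling. The difference was called under 13 of 14 alternatives, the exception being the neutrophil scaling. For Nfkb1 the difference was -0.90 (adjusted p = 0.019), and it was called under 8 of 14. For Rel the difference was -0.78 (adjusted p = 0.038), and it was called under 6 of 14.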

How the results depend on the processing

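Tumour over culture, all 10 genes were called higher in both fractions under every alternative. In the tumour sort, members called were 10, but 2 with total counts and 0 with the neutrophil scaling (0 at an unadjusted p under 0.05; DESeq2's Wald test called 10), and 8 to 10 without 1 library; all genes called were 4495 (without tumour CD71- replicate 2) to 7712 without 1 library, beside 6951. In the culture sort, 4 members were called, 1 in the fit of only the 4 libraries compared and 0 to 4 without 1 library, and all genes called were 7352 with the neutrophil scaling and 826 to 2880 without 1 library, beside 2595. For the difference, 3 were called, 5 with DESeq2's size factors, 6 with its Wald test, 1 with total counts, 0 with the neutrophil scaling (3 at an unadjusted p under 0.05) and 1 to 4 without 1 library; all genes called were 805 with the neutrophil scaling and 966 to 3609 without 1 library, beside 2470. The cause of these changes was not tested.

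Directions turned as follows. In the tumour sort, Tnf was at 0.10 and Rel at 0.059 with total counts, and with the neutrophil scaling Tnf was at 0.44, Nfkb1 at 0.19, Rel at 0.43, Nfkbia at 0.13, Nfkbiz at 0.094, Map3k8 at 0.17, Ikbke at 0.24 and Tbk1 at 0.063. In the culture sort with the neutrophil scaling, Tnfaip3 was at 0.68, Nfkb2 at 0.0053, Relb at 0.081, Bcl3 at 0.19, Rnf31 at 0.11, Tnip2 at 0.020 and Itch at 0.17. Tnfaip2, Nfkbia and Nfkbiz, below 0 but not called under TMM, were also above 0 there, at 0.52, 0.55 and 0.43, as were Tnfaip3 and Nfkbia with total counts, at 0.088 and 0.0095. Chuk, tumour over culture, was at -0.19 in CD71- with total counts, and with the neutrophil scaling at -0.52 in CD71- and -0.46 in CD71+.

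The labels number the samples of each group 1 and 2 without saying that a number marks a shared origin. Deviations of same-numbered samples correlated at 0.22 between the tumour fractions and 0.07 between the culture fractions. Between a tumour and a culture group they correlated at -0.28 to -0.14. With the replicate number as a block, members called were 10 in the tumour sort, 3 in the culture sort (Bcl3 at an adjusted p of 0.068, edgeR), 3 for the difference and 10 in each comparison of origin, and all genes called were 6335, 2135, 1997, 10307 and 8717. All 10 genes had at least 263 counts in every library, so that the number of libraries, 2 a group, limits the precision more than depth does.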
